A study of Mus musculus with 4 samples.

Results

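The cell cycle and DNA replication genes were followed as 48 members of the 16015 genes listed, each found by its gene symbol. They were ordered by role into 11 genes of replication licensing and origin firing, 9 genes of the replication fork and the nucleotide supply, 7 regulators of G1 and of entry into S phase, and 21 genes of G2 and mitosis. The members of the first 2 groups together are called the S phase members. RNA from colonic epithelial cells was sequenced in 4 libraries, 1 from each of 2 control mice (*Bmal1* fl/fl, labelled WT) and 2 *Bmal1* cKO mice (*Villin-CreERT2;Bmal1* fl/fl). All mice were on a C57BL/6 background, aged 2 to 4 months, and the study's mice received tamoxifen for 5 days, which activates the Cre recombinase. The *Villin* promoter limits Cre to the intestinal epithelium, so every other cell type of the colon keeps *Bmal1*. All 4 mice then drank 3% dextran sulfate sodium (DSS), a polysaccharide that injures the colonic epithelium, for 5 days and water for 2 days, and were sampled on day 7. The comparison asked how the deletion of the clock gene *Bmal1* in the epithelium changed the transcripts of the injured colon.

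The colonic epithelium renews itself from dividing cells at the base of its crypts, and after an injury the same cells rebuild the lost surface. In G1, D-type cyclins with CDK4, and then E-type cyclins with CDK2, release the E2F transcription factors, which switch on the genes of DNA replication. The MCM2 to MCM7 helicase is loaded on origins with the help of CDC6 and CDT1, and DNA is copied in S phase by a fork that holds PCNA and the polymerases. In G2, MYB and FOXM1 activate the mitosis genes, which the DREAM complex holds silent in resting cells and whose promoters often carry a cell cycle homology region (CHR) downstream of CCAAT boxes, and cyclin B with CDK1 then drives mitosis. The clock factor BMAL1 binds the E-box CACGTG together with CLOCK, and MYC with MAX binds the same letters.

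Values are normalized counts, in which the reads of a gene were scaled by a size factor for each library. Fold changes are differences of log2(normalized count + 1), *Bmal1* cKO minus control, with their standard error (SE) and an adjusted p from limma, and a gene passed at an adjusted p under 0.05. In each library 100% of the values became whole numbers when divided by the smallest positive value, taken as 1 read. This gave between 10312791 and 14156639 reads per library on the listed genes. The targeted gene *Bmal1*, listed as *Arntl*, had 358 and 342 normalized counts in control mice, against 341 and 289 in *Bmal1* cKO mice, and its log2 fold change of -0.16 (SE 0.14) did not pass (adjusted p = 0.389). Gene-wide counts cannot tell reads of deleted exons from the rest, and each direction below is the one seen in libraries labelled *Bmal1* cKO. Of the 13983 genes tested, 29.0% were called higher and 27.7% lower. Counts of called genes below are to be read beside these shares. The log2 fold change followed the GC content of the transcript, with a Spearman's rho of -0.61 across 13975 genes, against 0.01 between the 2 control libraries and -0.12 between the 2 *Bmal1* cKO libraries (a description across genes, which are not independent replicates). The main results are therefore given also after a correction of every library by the GC content and length of the transcript, called the corrected value, after which 18.4% of all tested genes were higher and 17.6% lower. The correction cannot tell a GC-related difference in library preparation from a biological change that follows GC content.

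Of the 47 members tested, 10 were higher, 15 were lower and 22 did not pass in the *Bmal1* cKO mice, with a median log2 fold change of -0.14, against -0.04 over all tested genes. Before the correction these shares did not stand far from those of all genes in either direction. The 10 higher members were *Pola1*, *Ccne2* and 8 genes of G2 and mitosis, whereas 11 of the 15 lower members belonged to S phase or to G1. After the correction 1 member was higher and 14 were lower (median -0.29), against 18.4% and 17.6% of all tested genes. The 8 members lower in both ways were *Mcm2*, *Gins2*, *Tk1*, *Ccnd1*, *Ccnd2*, *Cdk4*, *Cdk1* and *Plk1*. With a term for the replicate number (a replicate block) beside the correction, *Gins2* (adjusted p = 0.0584) and *Ccnd1* (adjusted p = 0.0627) did not pass. With an ordinary least squares curve in place of the robust one, the lower members were *Ccnd2* and *Cdk1*, and the higher ones *Ccnb1*, *Ccnb2*, *Bub1* and *Cdc20*. Of all 13983 tested genes, that curve called 4215 higher and 1637 lower. The libraries of the groups did not overlap in 41 of the 47 members, against 82.1% of all tested genes. Fewer members were called lower without either control mouse, and so were fewer of all tested genes. The lower members numbered 9, beside 12 higher, with libraries scaled to epithelial genes, against 3075 lower and 4555 higher of 13983 tested genes. They numbered 21, beside 10 higher, with libraries scaled to their total reads, against 4885 lower and 3091 higher of all tested genes. Scaling to total reads added *Mcm3*, *Rrm2*, *Aurka*, *Bub1b*, *Kif20a* and *Tpx2* to the lower members, and scaling to epithelial genes added *Ccnb2* and *Birc5* to the higher ones. With 2 mice per group, p-values rest on the spread between these 4 samples. The variance of each gene is also drawn towards a trend over all tested genes. In bulk samples, fewer cells of a type and less RNA per cell cannot be told apart.

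**Figure D1:**
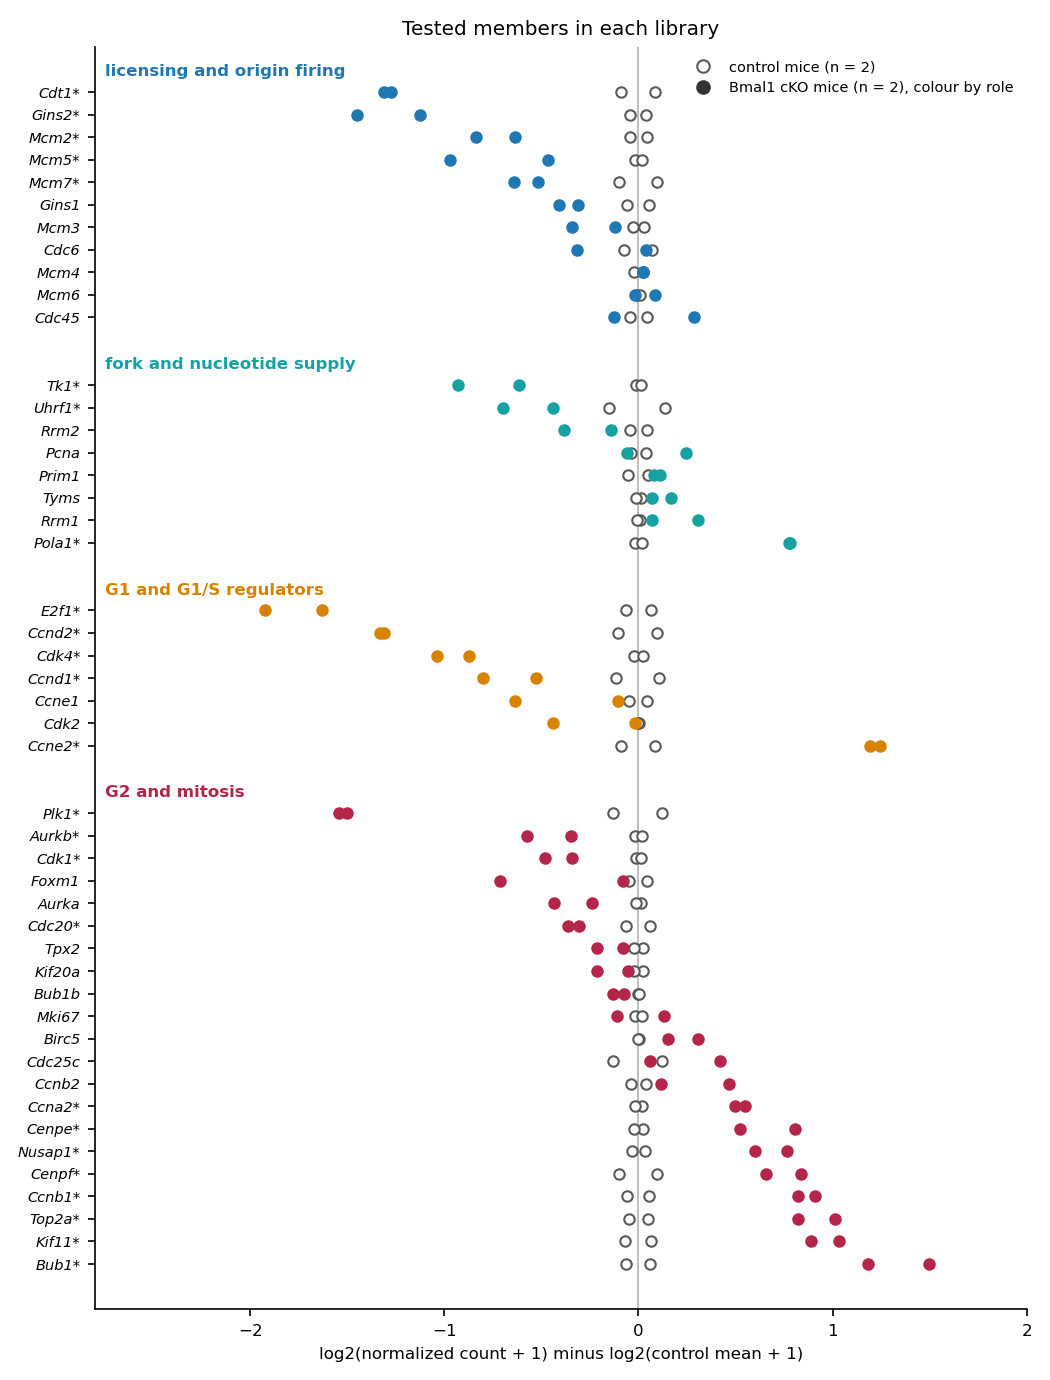
Each row is a tested member, and each point a library, as log2(normalized count + 1) minus the log2 of the control mean + 1 (open points, 2 control mice; filled points, 2 *Bmal1* cKO mice, coloured by role; an asterisk marks a gene that passed). *E2f1*, *Plk1*, *Ccnd2*, *Cdt1* and *Gins2* lie farthest to the left, *Bub1*, *Ccne2*, *Kif11* and *Top2a* farthest to the right, and *Mki67* stays at the control level.

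Promoter sequences are shown for 7 members. Members that carry the same motif, and are usually transcribed at the same point of the cycle, were called in different directions before the correction. The call beside each sequence is the one before the correction. After it *Cdk4* and *Cdk1* were lower, and *Mcm5*, *Mcm6*, *Pola1*, *Top2a* and *Kif11* did not pass. RefSeq windows of GRCm38.p6 from 250 bases before to 50 bases after the start of transcription were found for 36 of the 48 members. On both strands, 4 motifs were searched, namely E2F (TTTGGCGC, TTTCCCGC, TTTCGCGC or TTTGCCGC), CHR (TTTGAA or TTCGAA), the CCAAT box, and the E-box CACGTG. The motifs could overlap, as E2F letters do with each other in *Mcm5* and *Mcm6*. The lines give the 180 bases before the start, 5′ to 3′ in the direction of the gene, with every match in capitals.
Mcm5 (chr8:75109329-75109508, + strand, lower): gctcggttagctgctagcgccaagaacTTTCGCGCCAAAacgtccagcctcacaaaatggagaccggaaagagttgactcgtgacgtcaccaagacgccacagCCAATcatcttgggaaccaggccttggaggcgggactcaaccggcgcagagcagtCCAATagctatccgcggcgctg
Mcm6 (chr1:128359706-128359885, - strand, did not pass): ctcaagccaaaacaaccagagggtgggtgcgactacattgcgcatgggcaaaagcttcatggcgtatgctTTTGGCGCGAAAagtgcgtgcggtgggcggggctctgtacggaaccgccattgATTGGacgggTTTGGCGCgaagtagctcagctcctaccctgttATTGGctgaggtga
Pola1 (chrX:93632156-93632335, - strand, higher): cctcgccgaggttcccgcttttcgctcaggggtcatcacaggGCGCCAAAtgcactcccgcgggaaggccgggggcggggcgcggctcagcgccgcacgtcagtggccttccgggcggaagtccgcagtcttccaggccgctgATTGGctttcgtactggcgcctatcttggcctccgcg
Cdk4 (chr10:127063355-127063534, + strand, lower): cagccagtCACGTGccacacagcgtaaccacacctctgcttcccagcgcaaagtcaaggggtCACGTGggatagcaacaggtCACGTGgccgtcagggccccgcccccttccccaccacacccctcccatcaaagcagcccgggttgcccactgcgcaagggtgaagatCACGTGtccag
Top2a (chr11:99024190-99024369, - strand, higher): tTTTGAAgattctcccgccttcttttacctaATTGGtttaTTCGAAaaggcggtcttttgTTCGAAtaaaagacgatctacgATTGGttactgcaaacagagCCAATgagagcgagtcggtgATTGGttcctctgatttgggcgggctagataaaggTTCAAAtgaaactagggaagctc
Kif11 (chr19:37376202-37376381, + strand, higher): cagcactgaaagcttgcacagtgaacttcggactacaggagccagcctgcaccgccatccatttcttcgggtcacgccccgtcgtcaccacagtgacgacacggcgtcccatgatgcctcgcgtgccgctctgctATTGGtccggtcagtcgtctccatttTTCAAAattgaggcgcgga
Cdk1 (chr10:69352913-69353092, - strand, lower): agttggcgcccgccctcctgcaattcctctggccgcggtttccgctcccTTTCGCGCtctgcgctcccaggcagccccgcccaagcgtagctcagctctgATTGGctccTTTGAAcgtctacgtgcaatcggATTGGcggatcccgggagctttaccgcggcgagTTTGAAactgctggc

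The motifs were counted by role and by call. The E2F letters stood in the windows of 7 of 17 S phase members and 1 of 15 members of G2 and mitosis, against 2.32% of 27025 genes. The CHR letters stood in 4 of 17 S phase members and 11 of 15 members of G2 and mitosis, against 19.4% of all genes, and CCAAT in 12 of 17 and 13 of 15, against 37.9%. By the call before the correction, CHR was found in 4 of 8 higher and 5 of 11 lower members. E2F was found in 1 of 8 and 4 of 11, and CCAAT in 7 of 8 and 7 of 11. Within G2 and mitosis, by the same call, CHR was found in 4 of 7 higher and in 3 of 3 lower members. The E-box was found in 2 members of 36, against 7.24% of all genes. The members were *Cdk4*, with 4 matches, and *Tyms*. A match describes these letters in this window and is not a measured binding site, and none of these shares was tested.

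Of the 11 licensing and origin firing genes, 0 were higher, 5 were lower and 6 did not pass. *Cdt1*, which loads the MCM helicase, had 651 and 734 normalized counts in control mice, against 279 and 285 in *Bmal1* cKO mice. Its fold change was -1.29 on the log2 scale (SE 0.12, adjusted p = 0.000906), and the groups lay far apart. *Gins2*, a subunit of the GINS complex that joins the active helicase, had 204 and 193 against 72.0 and 90.6, a log2 fold change of -1.29 (SE 0.22, adjusted p = 0.00527). Exons of *Gse1* overlap 67.3% of its exon bases, so its reads may be shared, and its call was lost without control mouse 1 (adjusted p = 0.0556). The partner subunit *Gins1* had 140 and 152 against 117 and 109 and did not pass (adjusted p = 0.165).

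The 6 subunits of the MCM helicase, which act together in a ring, held 3 that passed as lower and 3 that did not pass. *Mcm2* had 1131 and 1201 normalized counts in control mice, against 751 and 653 in *Bmal1* cKO mice (log2 fold change -0.73, SE 0.11, adjusted p = 0.00377). *Mcm5* had 1491 and 1527 against 1090 and 770 (-0.72, SE 0.18, adjusted p = 0.0183), and *Mcm7* had 1670 and 1911 against 1252 and 1148 (-0.58, SE 0.11, adjusted p = 0.00802). In each of these 3 subunits the groups did not overlap, as in 82.1% of all tested genes. *Mcm3* had 1219 and 1270 against 1145 and 983, with a log2 fold change of -0.23 that did not pass. *Mcm4* had 1171 and 1210 against 1211 and 1211, and *Mcm6* had 1889 and 1906 against 2011 and 1873, with log2 fold changes of 0.02 and 0.03. Whether the subunits differed from each other in their change was not tested. The summed normalized counts of the 6 subunits were 8572 and 9025 in control mice, against 7459 and 6638 in *Bmal1* cKO mice. The correction changed which subunits were called. *Mcm2* kept its call (-0.55, adjusted p = 0.0137), *Mcm5* (-0.48, adjusted p = 0.0734) and *Mcm7* (-0.16, adjusted p = 0.241) lost it, and *Mcm4* was lower (-0.46, adjusted p = 0.0135). The call of *Mcm5* was lost without either control mouse (adjusted p = 0.102 and 0.108), and that of *Mcm7* without *Bmal1* cKO mouse 2 (adjusted p = 0.0655). Both calls were also lost when libraries were scaled to epithelial genes, with log2 fold changes of -0.53 (adjusted p = 0.0503) and -0.38 (adjusted p = 0.0554).

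The remaining origin genes showed no change that passed. *Cdc6*, the other loader of the helicase, had 311 and 281 normalized counts in control mice, against 304 and 238 in *Bmal1* cKO mice, and the groups overlapped. *Cdc45*, which activates the helicase, had 342 and 363 against 430 and 323, again with overlap. After the correction 3 of the 11 genes were lower (*Mcm2*, *Mcm4* and *Gins2*), and the corrected fold change of *Cdt1* was -0.31 (adjusted p = 0.107). With a replicate block beside the correction *Gins2* did not pass (-0.87, adjusted p = 0.0584).

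Among the 8 genes of the fork and the nucleotide supply that were tested, 1 was higher and 2 were lower. *Pola1*, the catalytic subunit of DNA polymerase alpha, had 433 and 445 normalized counts in control mice, against 756 and 753 in *Bmal1* cKO mice (log2 fold change 0.78, SE 0.10, adjusted p = 0.00223). Its partner in primer synthesis, *Prim1*, had 392 and 365 against 408 and 400 and did not pass (0.10, adjusted p = 0.519). *Tk1*, thymidine kinase of the salvage pathway, had 885 and 901 against 583 and 468 (-0.77, SE 0.14, adjusted p = 0.00615). *Uhrf1*, which guides maintenance DNA methylation behind the fork, had 1273 and 1557 against 1042 and 872 (-0.56, SE 0.15, adjusted p = 0.0225). The 3 genes that passed had no overlap between the groups, as in 82.1% of all tested genes. The call of *Tk1* was lost without control mouse 1 (adjusted p = 0.0516) or 2 (0.0518), and that of *Uhrf1* without control mouse 2 (0.113), *Bmal1* cKO mouse 1 (0.0568) or *Bmal1* cKO mouse 2 (0.134). Scaling to epithelial genes also ended the call of *Uhrf1* (-0.37, adjusted p = 0.0868).

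The clamp of the fork and the enzymes that make deoxynucleotides did not pass. *Pcna*, the sliding clamp, had 2116 and 2234 normalized counts in control mice, against 2580 and 2088 in *Bmal1* cKO mice. *Rrm1* and *Rrm2* encode the subunits of ribonucleotide reductase. *Rrm1* had 2393 and 2373 against 2944 and 2505 (log2 fold change 0.19), and *Rrm2* 1548 and 1645 against 1445 and 1222 (-0.26). *Tyms*, thymidylate synthase, had 672 and 661 against 748 and 700 (0.12). *Fen1*, the flap endonuclease, was not tested, since its mean was under 10 normalized counts (5.91 and 5.93 against 4.11 and 1.35), and exons of other genes overlap 84.2% of its exon bases. After the correction *Rrm2* (-0.68), *Tk1* (-0.56), *Rrm1* (-0.56) and *Prim1* (-0.54) were lower, with adjusted p between 0.0138 and 0.0237, *Pola1* was at -0.15 (adjusted p = 0.259), and *Uhrf1* at -0.12 (adjusted p = 0.513).

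The G1 and G1/S regulators had 1 gene of 7 higher and 4 lower, and held some of the largest falls among the members. *Ccnd2*, cyclin D2 (ENSMUSG00000000184, GRCm38 chromosome 6, 127125162 to 127152193), had 4626 and 5313 normalized counts in control mice, against 1971 and 2000 in *Bmal1* cKO mice, for a log2 fold change of -1.32 (SE 0.10, adjusted p = 0.000626). *Ccnd1*, cyclin D1, had 2452 and 2098 against 1307 and 1579 (-0.66, SE 0.14, adjusted p = 0.0105). *Cdk4*, the kinase that both cyclins bind, had 1458 and 1506 against 720 and 808 (-0.96, SE 0.10, adjusted p = 0.00125). Both *Bmal1* cKO mice were below both control mice in all 3 genes, and the groups did not overlap in 82.1% of all tested genes. *E2f1*, a transcription factor that activates S phase genes (ENSMUSG00000027490, chromosome 2, 154559407 to 154569892), had 234 and 256 against 63.8 and 78.4, a log2 fold change of -1.78 (SE 0.21, adjusted p = 0.00173), the largest fall among the 47 members. *Ccne2*, cyclin E2, had 214 and 190 against 463 and 480 and was higher (1.22, SE 0.14, adjusted p = 0.00146). Its relative *Ccne1* had 275 and 293 against 263 and 182, and *Cdk2*, the kinase of both E-type cyclins, 641 and 640 against 632 and 472. Neither passed.

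The robust correction kept the calls of *Ccnd1*, *Ccnd2* and *Cdk4*, and ended those of *E2f1* and *Ccne2*. *Ccnd2* was at -1.67 (SE 0.10, adjusted p = 0.00273), *Ccnd1* at -0.56 (adjusted p = 0.0339) and *Cdk4* at -0.54 (adjusted p = 0.0161). *E2f1* was at -0.72 (SE 0.23, adjusted p = 0.0583) and *Ccne2* at -0.09 (adjusted p = 0.595). The call of *Ccnd1* before the correction was lost without control mouse 1 (adjusted p = 0.0729) or *Bmal1* cKO mouse 1 (0.0714). Exons of *LTO1* overlap 23.4% of the exon bases of *Ccnd1*, exons of *Tspan31* 19.7% of those of *Cdk4*, and exons of *Ints8* 17.4% of those of *Ccne2*. The third D-type cyclin *Ccnd3*, which was no member and was chosen after its values were seen, had 726 and 652 against 174 and 187 (-1.93, SE 0.13, adjusted p = 0.000537; corrected -1.07, adjusted p = 0.00657). With an ordinary least squares curve in place of the robust one, *Ccnd2* kept its call, and *Ccnd1* (-0.29, adjusted p = 0.127) and *Cdk4* (-0.24, adjusted p = 0.179) did not pass. With a replicate block beside the robust correction, *Ccnd1* did not pass either (adjusted p = 0.0627).

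Among the 21 genes of G2 and mitosis, 8 were higher and 4 lower before the correction, with a median log2 fold change of 0.23. *Bub1*, a kinase of the spindle checkpoint, had 525 and 481 normalized counts in control mice, against 1422 and 1144 in *Bmal1* cKO mice (log2 fold change 1.34, SE 0.14, adjusted p = 0.00113). *Kif11*, the motor that pushes the spindle poles apart, had 1471 and 1337 against 2871 and 2602 (0.96, SE 0.10, adjusted p = 0.00123). *Top2a*, the topoisomerase that untangles sister chromatids, had 4981 and 4653 against 9722 and 8528 (0.92, SE 0.11, adjusted p = 0.00189). In these 3 genes the *Bmal1* cKO libraries were far above the control libraries. *Ccnb1*, cyclin B1, had 1339 and 1450 against 2621 and 2470 (0.87, SE 0.09, adjusted p = 0.00129). *Ccna2*, cyclin A2, had 1964 and 1917 against 2836 and 2736 (0.52, SE 0.09, adjusted p = 0.00472).

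The other 3 higher mitosis genes belong to the kinetochore and the spindle. *Cenpf* had 961 and 1103 normalized counts in control mice, against 1845 and 1630 in *Bmal1* cKO mice, *Cenpe* 1111 and 1079 against 1913 and 1573, and *Nusap1* 626 and 597 against 1041 and 929. Their log2 fold changes were 0.75, 0.66 and 0.68, with adjusted p of 0.00407, 0.00695 and 0.00415. No groups overlapped, as in 82.1% of all tested genes. The call of *Cenpe* was lost without control mouse 1 (adjusted p = 0.0504) or 2 (0.0532). After the robust correction none of the 8 genes was higher, and their corrected log2 fold changes lay between -0.16 and 0.42. *Bub1* had the highest corrected value of all members (0.42, SE 0.14, adjusted p = 0.0684). With the ordinary least squares curve *Bub1* (0.66, adjusted p = 0.0185) and *Ccnb1* (0.47, adjusted p = 0.0295) were higher.

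The 4 lower genes of G2 and mitosis were *Plk1*, *Cdk1*, *Aurkb* and *Cdc20*. *Plk1* (ENSMUSG00000030867, chromosome 7, 122159439 to 122169873), which drives entry into mitosis and the maturation of the spindle poles, had 1461 and 1736 normalized counts in control mice, against 547 and 564 in *Bmal1* cKO mice, with a log2 fold change of -1.52 (SE 0.12, adjusted p = 0.000612). It was also lower after the robust correction (-0.76, SE 0.12, adjusted p = 0.00896), and with the ordinary least squares curve it did not pass (-0.46, adjusted p = 0.0585). *Cdk1*, the partner kinase of cyclin B, had 1217 and 1238 against 877 and 969 (-0.41, SE 0.10, adjusted p = 0.0169; corrected -0.68, adjusted p = 0.00728). *Cdk1* was lower while both cyclin partners that passed, *Ccnb1* and *Ccna2*, were higher before the correction. *Aurkb*, the kinase of the chromosomal passenger complex, had 684 and 701 against 545 and 465 (-0.46, SE 0.12, adjusted p = 0.0242), and its corrected value did not pass (-0.15, adjusted p = 0.361). *Cdc20*, the activator of the anaphase-promoting complex, had 1158 and 1260 against 978 and 941 and turned from lower (-0.33, SE 0.10, adjusted p = 0.0319) to higher (0.39, SE 0.09, adjusted p = 0.0276) with the correction. Of these 4 genes, *Plk1* kept its call whichever mouse was left out. The call of *Cdk1* was lost without control mouse 1 (adjusted p = 0.0702), control mouse 2 (0.0747) or *Bmal1* cKO mouse 1 (0.0779). The call of *Aurkb* was lost without control mouse 1 (adjusted p = 0.0976), control mouse 2 (0.109) or *Bmal1* cKO mouse 2 (0.0961), and that of *Cdc20* whichever mouse was left out (adjusted p between 0.060 and 0.127). Scaling to epithelial genes ended the calls of *Cdk1* (-0.22, adjusted p = 0.247), *Aurkb* (-0.27, adjusted p = 0.237) and *Cdc20* (-0.14, adjusted p = 0.455). The call of *Cdc20* was also lost by DESeq2 on the recovered reads (adjusted p = 0.0672) and with a replicate block (adjusted p = 0.0524). The higher call of *Cdc20* after the correction was lost with a replicate block beside the correction (adjusted p = 0.0519).

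*Mki67*, the usual marker of dividing cells, did not differ beyond the spread of its libraries. It had 5929 and 6089 normalized counts in control mice, against 6573 and 5562 in *Bmal1* cKO mice, for a log2 fold change of 0.01 (SE 0.12, adjusted p = 0.953). *Mki67* was lower after the correction (-0.41, SE 0.12, adjusted p = 0.0451), but did not pass with a replicate block beside the correction. *Foxm1*, the transcription factor of the G2 genes, had 767 and 720 against 703 and 453 and did not pass (-0.40, adjusted p = 0.168), but was lower without *Bmal1* cKO mouse 1 (-0.71, adjusted p = 0.0288). *Aurka*, the kinase of the spindle poles, had 672 and 658 against 563 and 492 and narrowly missed the threshold (-0.34, adjusted p = 0.0533), and its activator *Tpx2* had 1175 and 1139 against 1096 and 999 (-0.14; corrected -0.41, adjusted p = 0.0279). The other 5 genes of G2 and mitosis that did not pass were *Ccnb2*, *Cdc25c*, *Birc5*, *Bub1b* and *Kif20a*, with log2 fold changes between -0.13 and 0.29. *Bub1b* (792 and 795 against 753 and 725) is a partner of *Bub1* in the spindle checkpoint.

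The medians of the S phase and the mitosis members moved apart. The median log2 fold change was -0.23 over the 19 tested S phase members and 0.23 over the 21 members of G2 and mitosis. This is a difference of 0.46. Within the S phase members the median was -0.36 for licensing and origin firing and 0.09 for the fork and the nucleotide supply. After the correction these 2 medians were -0.31 and -0.46. Within each library, the median log2 value of the mitosis members minus that of the S phase members was -0.23 and -0.15 in control mice, against 0.46 and 0.36 in *Bmal1* cKO mice, with a pooled standard deviation of 0.063. The ratio of their summed normalized counts, which does not depend on the scaling of a library, was 1.47 and 1.41 in control mice, against 2.07 and 2.13 in *Bmal1* cKO mice. The *Bmal1* cKO libraries were thus above the control libraries by more than the mice of a group differed. With 2 mice per group an exact permutation test cannot reach the threshold, and none was run. Without *Bmal1* cKO mouse 2 the difference of the medians fell from 0.46 to 0.25. After the correction, with all mice, it was 0.31, with -0.37 for the S phase members and -0.06 for the mitosis members. The S phase members held 7 lower and 1 higher gene before the correction and 7 lower and 0 higher after it. Of these, 3 (*Mcm2*, *Gins2* and *Tk1*) were called lower both times, and *Gins2* did not pass with a replicate block beside the correction. The 7 lower genes fell to 4 without control mouse 1 or 2, and the 4 lower mitosis genes to 1 without control mouse 1 or 2 and to 2 without *Bmal1* cKO mouse 2. The form of the correction mattered, since an ordinary least squares curve in place of the robust one called 0 S phase members lower and moved the median of all genes to 0.27.

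**Figure D2:**
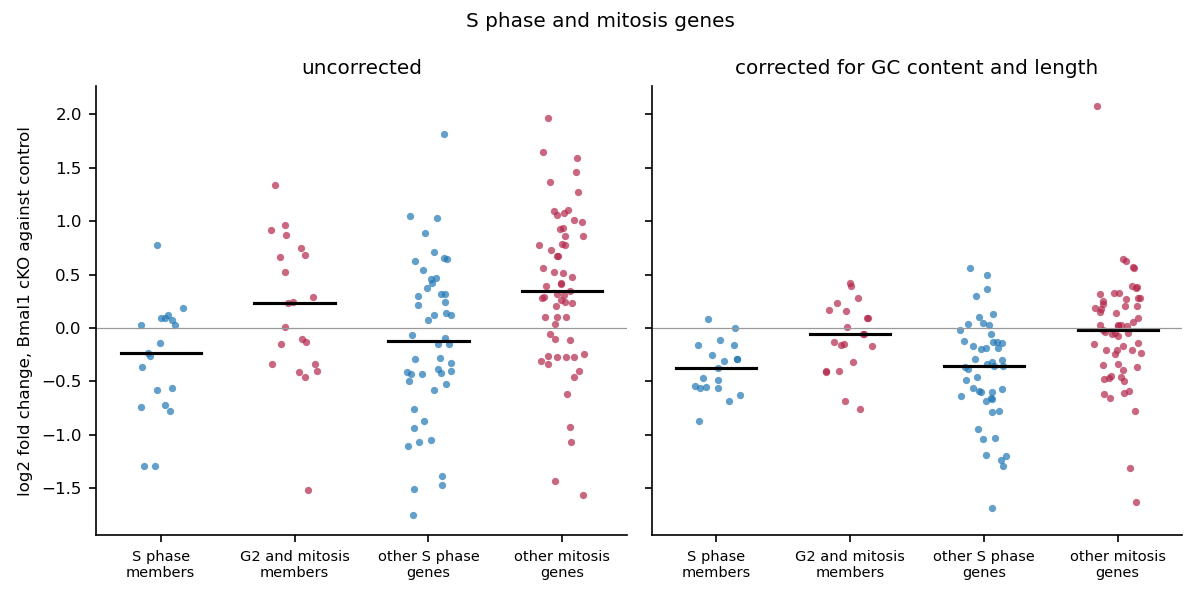
Log2 fold change (*Bmal1* cKO minus control, vertical axis) of each gene in 4 groups, without correction on the left and corrected for GC content and length on the right. Bars are medians, which were -0.23 and 0.23 for the S phase and the mitosis members on the left and -0.37 and -0.06 on the right.

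The same order held in the other genes of the pathway, listed by function. Of 48 other S phase genes, 11 were higher and 14 lower (median log2 fold change -0.12), against 29.0% and 27.7% of all tested genes. After the correction 2 were higher and 20 lower (-0.35), against 18.4% and 17.6%. *Topbp1*, which helps to activate the helicase, had 1713 and 1705 normalized counts in control mice, against 2439 and 2271 in *Bmal1* cKO mice (0.46, adjusted p = 0.00827; corrected 0.03). Its call was lost when libraries were scaled to total reads (0.24, adjusted p = 0.0777) and without *Bmal1* cKO mouse 1 (adjusted p = 0.0542). *Hells*, a chromatin remodeller, had 934 and 1132 against 2205 and 2059 (1.05, adjusted p = 0.00161; corrected -0.20), and *Dnmt1*, the maintenance DNA methyltransferase, 1880 and 1948 against 942 and 885 (-1.07, adjusted p = 0.000718; corrected -0.60, adjusted p = 0.00725). *Orc4*, of the origin recognition complex, rose most (436 and 430 against 1494 and 1557, 1.81, adjusted p = 0.000533), and *Pold2*, of DNA polymerase delta, fell most (597 and 594 against 207 and 151, -1.75, adjusted p = 0.0012). Both were also called in the same direction after the correction (0.49 and -0.59, adjusted p = 0.0138 and 0.0467). With the ordinary least squares curve *Pold2* (-0.30, adjusted p = 0.249) and *Dnmt1* (-0.28, adjusted p = 0.113) did not pass, nor did *Pold2* with a replicate block beside the robust correction (adjusted p = 0.0584). The 11 higher genes became 6, 7 and 5 without control mouse 1, control mouse 2 and *Bmal1* cKO mouse 1, and the 14 lower genes 8, 8 and 9 without control mouse 1, control mouse 2 and *Bmal1* cKO mouse 2. Scaling to total reads gave 5 higher and 21 lower, and scaling to epithelial genes 14 and 9.

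Of 59 other mitosis genes, 29 were higher and 6 lower (median log2 fold change 0.35), against 29.0% and 27.7% of all tested genes. After the correction 6 were higher and 10 lower (-0.02), against 18.4% and 17.6%. The condensin subunits *Smc4* (1840 and 1731 against 4231 and 3502) and *Smc2* (1353 and 1392 against 3246 and 2649) and the cytokinesis gene *Ect2* (1610 and 1512 against 2867 and 2786) were the most abundant. Their log2 fold changes were 1.11, 1.09 and 0.86, and their corrected values, 0.09, 0.03 and -0.16, did not pass. *Depdc1a* rose most, from 289 and 266 to 1144 and 1026 normalized counts (1.96, adjusted p = 0.000533; corrected 0.56, adjusted p = 0.0179). *Psrc1*, a microtubule regulator, fell most, from 142 and 184 to 52.5 and 55.4 (-1.57, adjusted p = 0.00441; corrected -1.31, adjusted p = 0.0147). The 6 lower genes became 3 without control mouse 1 or 2, and scaling to total reads gave 22 higher and 11 lower.

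The brakes of the cycle did not share 1 direction. Of the 27 tested brakes, which hold CDK inhibitors and pocket proteins, 10 were higher and 8 lower (median log2 fold change -0.0043). Of all tested genes, 29.0% were higher and 27.7% lower. After the correction 8 brakes were higher and 2 lower (0.21), against 18.4% and 17.6% of all tested genes. *Rb1*, the pocket protein that holds E2F factors, rose from 756 and 724 to 1891 and 1892 normalized counts (1.35, adjusted p = 0.000533; corrected 0.42, adjusted p = 0.0182). *Cdkn1a*, the CDK inhibitor p21, fell from 2374 and 4072 to 1489 and 945 (-1.39, adjusted p = 0.0152), and its corrected value did not pass (-0.84, adjusted p = 0.0846). The inhibitor p27, *Cdkn1b*, which was chosen after its values were seen, rose from 711 and 605 to 1587 and 1738 (1.34, adjusted p = 0.000796; corrected 0.60, adjusted p = 0.0154). The most abundant brakes were the cyclin G genes *Ccng1* (0.54, adjusted p = 0.0118; corrected -0.39) and *Ccng2* (1.30, adjusted p = 0.00232; corrected 0.51), whose corrected values did not pass, and *Btg1*, which did not pass before the correction (-0.07) and was lower after it (-0.83, adjusted p = 0.00532). The call of *Cdkn1a* was lost without control mouse 2 (adjusted p = 0.0858) or *Bmal1* cKO mouse 2 (0.117). The call of *Ccng1* was lost without control mouse 1 (adjusted p = 0.0592), *Bmal1* cKO mouse 1 (0.0898) or *Bmal1* cKO mouse 2 (0.0596), and when libraries were scaled to total reads (0.31, adjusted p = 0.0576). The 8 lower brakes became 5, 3, 5 and 4 without control mouse 1, control mouse 2, *Bmal1* cKO mouse 1 and *Bmal1* cKO mouse 2.

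Among 20 other drivers of the cycle, 7 were higher and 4 lower, against 29.0% and 27.7% of all tested genes. After the correction 4 were higher and 4 lower, against 18.4% and 17.6%. *Myc*, whose product activates *Cdk4* and *Ccnd2* in many cells, fell most, from 1033 and 1432 normalized counts to 244 and 339 (-2.08, SE 0.23, adjusted p = 0.00132; corrected -1.66, SE 0.23, adjusted p = 0.00697). Its groups were far apart, and its fall was larger than that of any member before the correction. *Tfdp1* and *Tfdp2* encode the partners of E2F factors. *Tfdp1* had 2233 and 2129 against 2631 and 2557 and did not pass (0.25, adjusted p = 0.0535), while *Tfdp2* rose from 702 and 739 to 1403 and 1448 (0.98, adjusted p = 0.000891; corrected 0.46, adjusted p = 0.0153). *Lin54*, the subunit of the DREAM complex that binds the CHR, rose from 762 and 685 to 1350 and 1214 (0.82, adjusted p = 0.00248), and *Ccnh*, of the CDK-activating kinase, rose from 284 and 316 to 644 and 612 (1.07, adjusted p = 0.00153). Their corrected values of -0.06 and -0.04 did not pass.

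GC content set the higher members apart from the lower ones with no overlap. The longest transcripts of the 10 higher members held 36.3% to 46.1% GC, those of the 15 lower members 47.1% to 58.3%, and those of the 22 members that did not pass 43.3% to 54.6%. Across the 47 members, Pearson's r between log2 fold change and GC content was -0.86 and Spearman's rho -0.85, and after the correction rho was -0.17. Across the 107 other S phase and mitosis genes rho was -0.74 before and -0.03 after the correction. These values describe genes measured in the same 4 libraries. *Cdt1*, *E2f1*, *Plk1* and *Cdc20* lay at the GC-rich end and *Ccne2*, *Bub1* and *Pola1* at the GC-poor end. *Ccnd2* stood away from this trend, since at 47.1% GC, where the median gene was higher (log2 fold change 0.37 in its GC class), its level fell by 1.32 on the log2 scale. The part of the library preparation in the GC trend was not tested.

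**Figure D3:**
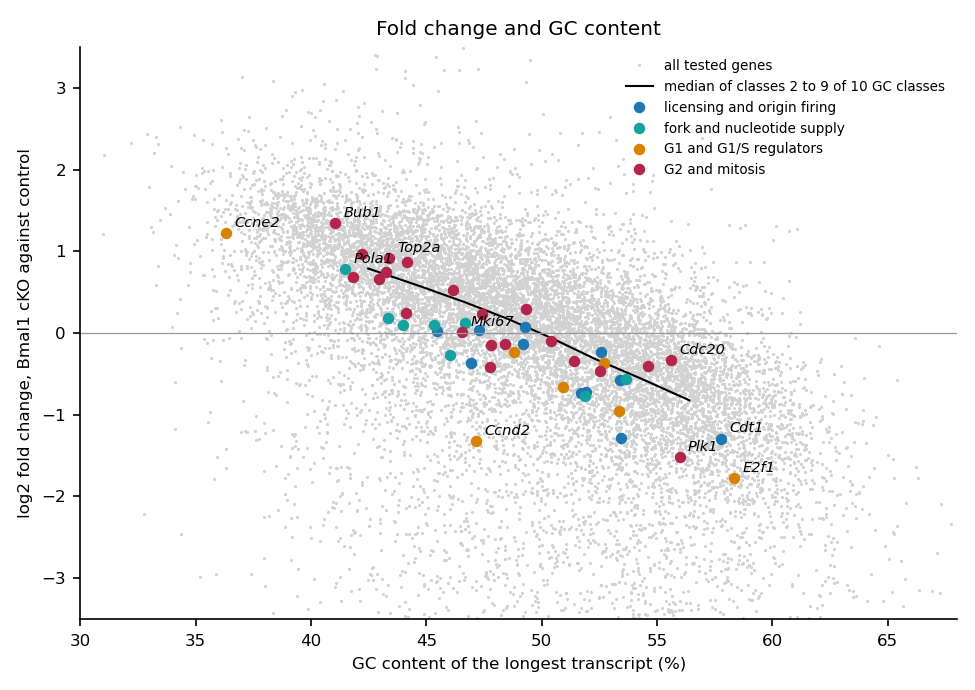
Log2 fold change (*Bmal1* cKO minus control) against the GC content of the longest transcript in percent, for all tested genes within the axes (grey) and for the members (coloured by role). The line joins the medians of classes 2 to 9 of 10 GC classes, from 0.79 to -0.82, and leaves off the outer classes (1.13 and -1.35). *Ccnd2* lies far below it.

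**Figure D4:**
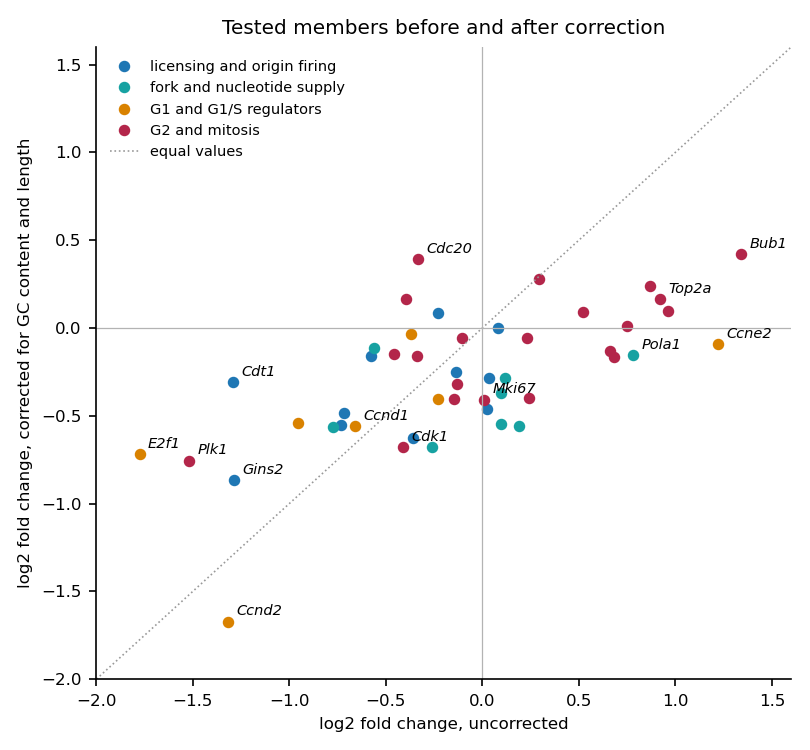
Log2 fold change of each tested member before (horizontal axis) and after (vertical axis) the correction for GC content and length, coloured by role; the dotted line marks equal values. Members on the right, such as *Bub1*, *Ccne2* and *Top2a*, move towards 0 or below it, *Cdc20* changes sign upwards, and *Ccnd2* is the lowest after the correction.

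Markers of other cells moved in the same libraries. Of 25 leukocyte markers tested, 0 were higher and 20 lower in the *Bmal1* cKO mice (median log2 fold change -3.16), with summed normalized counts of 21869 and 30985 in control mice, against 4583 and 4548 in *Bmal1* cKO mice. After the correction 17 were lower (median -2.87). *Ly6g* alone held 2918 and 2549 normalized counts of these sums in *Bmal1* cKO mice, and 5801 and 7474 in control mice. Its log2 fold change was -1.27, against the median of -3.16. The most abundant were the neutrophil genes *Ly6g*, *S100a8* and *S100a9*, and the calls of the last 2 were lost without either *Bmal1* cKO mouse (adjusted p between 0.0525 and 0.122). The pan-leukocyte gene *Ptprc*, chosen after its values were seen, had 1259 and 745 against 315 and 414, and its call was lost without *Bmal1* cKO mouse 1 (adjusted p = 0.0852) or 2 (0.0522). Of 16 markers of stroma and vessels, 14 were lower (-3.83), with sums of 18260 and 5114 against 581 and 702, and after the correction 13 were (-4.01). The most abundant were *Col3a1*, *Dcn* and *Vim*, of which *Dcn* did not pass (-2.95, SE 1.07, adjusted p = 0.0612). *Dcn* passed after the correction (adjusted p = 0.0321), with edgeR (0.0452) and with DESeq2 (0.0189), but not with TMM scaling. Its log2 fold change lay between -4.65 and -1.24 when 1 mouse was left out. The call of *Col3a1* was lost without *Bmal1* cKO mouse 1 (-4.13) or 2 (-3.75). Of 9 goblet cell markers, 6 were lower (-1.83), with sums of 239538 and 487202 against 74006 and 105345, and after the correction 4 were (-1.15). The most abundant were *Fcgbp*, *Muc2* and *Clca1*. *Clca1* stayed lower after the correction, and *Fcgbp* (adjusted p = 0.107) and *Muc2* (adjusted p = 0.0507) lost their calls. Without *Bmal1* cKO mouse 1 all 3 lost their calls (adjusted p between 0.0724 and 0.224), *Fcgbp* and *Muc2* also without *Bmal1* cKO mouse 2 (0.1 and 0.089), and *Muc2* without control mouse 2 (0.0923). The pan-epithelial markers had 0 higher and 3 lower of 9 (median -0.44), with sums of 121785 and 140187 against 110877 and 118102. Of the 9 markers, 8 had a negative log2 fold change. The 3 lower ones, named after their values were seen, were *Krt18* (-1.39), *Cdhr5* (-1.38) and *Elf3* (-0.53), which did not pass after the correction. *Epcam*, at 17455 and 21772 against 18588 and 20320, did not pass. After the correction 3 of the 9 were higher, among them the keratin genes *Krt8* (0.16 before and 1.08 after, adjusted p = 0.00908 after) and *Krt19* (-0.14 before and 0.84 after, adjusted p = 0.0219 after). The absorptive colonocyte markers had 2 higher and 2 lower of 12, and 2 higher and 1 lower after the correction, and the most abundant of them, *Ceacam1*, *Car1* and *Muc3*, did not pass either way. Leukocytes and stromal cells also divide, and the part of these cells in the lower members was not tested.

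The stem cell markers of the crypt base had 3 higher and 2 lower of 9, and 3 higher and 0 lower after the correction. The 2 lower genes, named after their values were seen, were *Ascl2* (54.9 and 135 against 16.5 and 29.7, log2 fold change -1.91, adjusted p = 0.0331) and *Rnf43* (551 and 935 against 387 and 310, -1.05, adjusted p = 0.0224), with corrected adjusted p of 0.424 and 0.398. *Lgr5*, chosen after its values were seen, rose from 24.5 and 76.2 to 275 and 339 normalized counts (2.79, SE 0.53, adjusted p = 0.00814; corrected 2.17, adjusted p = 0.0298), and *Smoc2*, chosen likewise, from 116 and 173 to 493 and 626 (1.97, SE 0.24, adjusted p = 0.00191; corrected 1.77, adjusted p = 0.00674). The call of *Lgr5* was lost without *Bmal1* cKO mouse 1 (adjusted p = 0.0709) or 2 (0.0887). The abundant crypt genes *Sox9* (878 and 1351 against 771 and 1003) and *Cdca7* (741 and 904 against 727 and 845) did not pass, and *Rgmb* rose from 449 and 628 to 1157 and 1261 (1.19, adjusted p = 0.00355). The part of these cells in the changes of the members was not tested.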

How the data were processed

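RNA of colonic epithelial cells from 2 control mice and 2 *Bmal1* cKO mice was compared. STAR was the authors' aligner, with GRCm38 as the genome, and DESeq2 normalized their gene counts; the counter and annotation are not given in the sources used here, and the labels and the methods name different library kits. The values deposited per library, with a mean column, are a signal obtained from gene counts through division by size factors, listed down to a mean of 3.39. The authors also deposited log2 fold changes, a score (the Wald statistic) and p-values, which were not used.

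Genes averaging 10 or more normalized counts (13983 of 16015) were analysed as log2(value + 1), a scale on which changes of low genes are understated. The groups were compared by limma 3.58.1 (two-sided, mean-variance trend), and p was adjusted over all of them by Benjamini-Hochberg, with a threshold of 0.05. Whole reads were recovered from the values (tolerance 0.01) for edgeR 4.0.16 and DESeq2 1.42.0 as alternatives. Other alternatives were pseudocounts of 0.5 and 5, other filters and scalings, a replicate block, leaving out each mouse, and robust loess (span 0.3) against GC content and transcript length within every library. GC content, exon lengths and overlaps of exons came from GENCODE M21, matched for 16003 genes. Without stated strand, reads of overlapping genes cannot be told apart. The steps were tested on simulated data.

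The members, roles and lists were chosen with earlier results of these data known. All members were named, with, in each pathway list, the 3 genes of highest mean and the passing genes that rose and fell most, and in each marker list the 3 of highest mean.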

Additional observations from a re-analysis of the deposited data

How the results depend on the processing

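Counts are given as higher and lower in the *Bmal1* cKO mice. Other pseudocounts (0.5 and 5), filters (none, or a mean of at least 50), TMM scaling, edgeR and DESeq2 on the recovered reads kept every count of members, roles and lists within 1.5 times the reported one. Over all genes, edgeR called 3861 higher and 3812 lower and DESeq2 3743 and 3861, against 4059 and 3871 by limma. Scaling each library to its total reads shifted the median of all genes to -0.26 and gave 8 lower genes of G2 and mitosis, 5 higher other S phase genes and 11 lower other mitosis genes. Scaling to epithelial genes shifted it to 0.15 and gave 9 lower members, 4 lower S phase members, 1 lower gene of G2 and mitosis and 9 lower other S phase genes.

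With the correction for GC content and length, 1 member (in G2 and mitosis), 0 S phase members and 0 G1 and G1/S members were higher. Other S phase genes had 2 higher, other mitosis genes 6 higher and 10 lower, brakes 2 lower and drivers 4 higher, and the difference between mitosis and S phase medians was 0.31. Among the named genes that passed with or without the correction, log2 fold changes changed sign in *Mcm4* (-0.46), *Pola1* (-0.15), *Prim1* (-0.54), *Rrm1* (-0.56), *Ccne2* (-0.094), *Mki67* (-0.41), *Cdc20* (0.39), *Cenpe* (-0.13), *Nusap1* (-0.16), *Hells* (-0.20), *Ect2* (-0.16), *Ccng1* (-0.39), *Lin54* (-0.060), *Ccnh* (-0.043) and *Krt19* (0.84). An ordinary least squares curve, chosen after seeing the data, shifted the median of all genes to 0.27. It gave 4 higher members (4 in G2 and mitosis, 0 in S phase, 0 in G1 and G1/S) and 2 lower (0 in S phase, 1 in G1 and G1/S, 1 in G2 and mitosis). Other S phase genes then had 3 higher and 8 lower, other mitosis genes 17 higher and 3 lower and brakes 2 lower, the difference was 0.31, and, among genes that passed in either fit, signs changed in *Mcm7* (0.12), *Uhrf1* (0.17), *Aurkb* (0.16), *Cdc20* (0.70), *Ccng1* (-0.16), *Krt19* (1.14) and *Epcam* (0.66). The cause of these changes was not tested.

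The replicate numbers do not pair the mice, since nothing says that mice of 1 number share a cage or day, and deviations from the group means correlated at -0.09. A replicate block ended the call of 1 member, *Cdc20* (adjusted p = 0.0524), and left 10 higher and 14 lower members. The replicate block with the correction gave 0 higher members, S phase members, G1 and G1/S members and genes of G2 and mitosis, with 2 lower G1 and G1/S members, 1 higher other S phase gene, 3 higher other mitosis genes, 2 lower brakes and 4 higher drivers. The difference was again 0.31, and the fold changes were those of the correction alone.

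Without 1 mouse, the lower members numbered 8 to 12, lower S phase members 4 to 6, lower genes of G2 and mitosis 1 to 3, other S phase genes 5 to 8 higher and 8 to 11 lower, lower other mitosis genes 3 to 7 and lower brakes 3 to 5, and the difference was 0.25 to 0.46. In these fits the lone mouse of a group is assumed to vary like the other group. Leaving out a mouse ended the calls of 4 to 8 members.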
